A study of Rattus norvegicus with 13 samples.

Results

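Sonogenetic rat hearts labelled 8 months were set against sonogenetic rat hearts labelled 6 months, 3 libraries against 3 of the 13 in the series. The members were the 6 count columns whose names give this group and these months, and the comparison ran across every gene that passed a filter on low counts, 12931 of the 38600 names that both count tables list. Each library is bulk RNA of heart tissue from 1 sample described as a biological replicate. Hearts of both time points had been transduced with AAV2/9-cTnT-MscL-G22S-mCherry, an adeno-associated virus that carries a variant of the bacterial mechanosensitive channel MscL and a red fluorescent protein. The cTnT promoter is that of cardiac troponin T and drives the transgene in heart muscle cells, so that the other cell types of the heart are not its intended target. No WT hearts of 8 months were analysed here, and the 3 WT hearts of 6 months are given below as levels only, with no test. The labels do not tell whether months count the age of a rat or the time after transduction, nor whether or when ultrasound was applied. All libraries of 6 months come from 1 table and all libraries of 8 months from another, so that time point and table are the same factor and their contributions cannot be told apart.

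Sonogenetics makes cells responsive to ultrasound by giving them a channel that opens when the membrane is stretched. Heart muscle answers stretch, calcium entry and handling with a wave of immediate early genes, transcription factors that are induced within minutes and decay quickly, followed by chaperones, secreted matrix proteins and inflammatory signals. Working myocardium otherwise devotes a large share of its transcription to contractile proteins and to the mitochondrial machinery of oxidative phosphorylation. In bulk tissue, fewer cells of a type and less RNA per cell cannot be told apart.

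The hearts of 6 months had libraries of 6.72 to 8.49 M expected counts and those of 8 months of 4.70 to 5.57 M, so that 3 counts, the smallest number treated as detected, stand for 0.354 to 0.639 CPM (counts per M counts). Cardiomyocyte markers were abundant in all 6 libraries, whereas only 4 of 29 skeletal muscle and 3 of 16 lung or thymic markers passed the count filter. Sonogenetic replicate 2 of 6 months stood apart: its counts differed from those of the other sonogenetic hearts of 6 months with a chi-square per degree of freedom of 6.89 and 8.67, against 1.93 between those 2 and 2.12 to 2.31 among the hearts of 8 months. In the same library the ribosomal RNA Rn18s was at 496 CPM, against 123 and 153 CPM in the other sonogenetic hearts of 6 months and 49.5 to 102 CPM at 8 months. Among the WT hearts, replicate 1 stood apart as well, with a chi-square per degree of freedom of 8.49 and 7.51, against 2.13 between replicates 2 and 3. Ribosomal RNA held 0.424% of counts in WT replicate 1, against 0.0944% and 0.127% in the other WT hearts. Ribosomal protein genes held 1.76% to 1.93% of counts at 6 months and 2.24% to 2.27% at 8 months, and genes with very long messenger RNAs held 1.67% to 1.80% and 1.45% to 1.49%.

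The transgene was present in every sonogenetic heart and did not differ beyond its spread. MSCL_G22S reached 197, 90.4 and 209 CPM of the library total at 6 months and 160, 116 and 180 CPM at 8 months, with 0 counts in the WT libraries. The groups overlapped, with replicate 2 lowest at both time points, and the log2 fold change was -0.18 (SE 0.24, adjusted p = 0.591). Without replicate 2 of 6 months the difference passed the threshold at -0.48 (adjusted p = 0.00228), and without replicate 3 of 6 months its direction turned, at 0.03.

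The comparison asks how the transcriptome of hearts that carry the channel differed between the later and the earlier time point. Of the 12931 genes tested, 39.6% passed an adjusted p of 0.05 by edgeR's quasi-likelihood test, 2464 of them higher at 8 months (19.1% of tested genes) and 2651 lower (20.5%). Among the calls, 48.2% were higher, a split that moved to 58.9% under scaling by library size only and to 61.4% under upper-quartile scaling. At least a 2-fold change was reached by 577 of the higher and 478 of the lower calls. The 3 libraries of 8 months lay entirely above those of 6 months in 25.6% of tested genes and entirely below them in 25.4%. The median log2 fold change over all tested genes was 0.02, and the middle 90% of genes lay between -0.85 and 0.95. Every fold change below is a log2 difference of 8 months minus 6 months with its standard error (SE), and every level is a CPM scaled by TMM across the 9 libraries of 6 and 8 months.

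**Figure D1:**
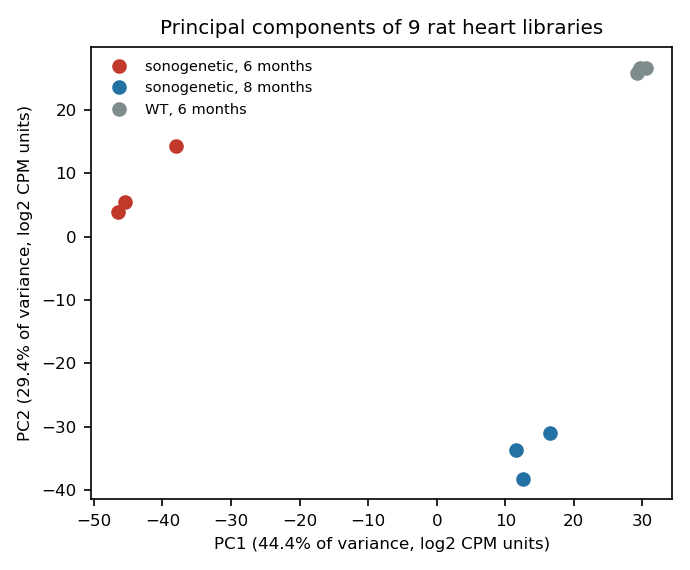
Principal components of log2 CPM over 13659 genes in 9 libraries; each point is 1 library, and both axes are in log2 CPM units. The first component (44.4% of variance) separates sonogenetic hearts of 6 months (-46.6 to -38.1) from those of 8 months (11.6 to 16.5) and WT hearts of 6 months (29.3 to 30.5), and the second (29.4%) sets the hearts of 8 months (-38.2 to -31.0) apart from both groups of 6 months.

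In the plot of principal components, the sonogenetic hearts of 8 months lay nearer to the WT than to the sonogenetic hearts of 6 months along the first axis. On the second axis the hearts of 8 months stood alone, and both groups from the table of 6 months were on the other side. Replicates stayed within their group on both axes.

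Immediate early genes were the list with the highest share of falls among the pathway lists. Of 36 tested members of the list of immediate early transcription factors and their feedback genes, 32 were lower at 8 months (88.9%, against 20.5% of all tested genes), 1 was higher and 3 did not pass, with a median log2 fold change of -1.73 against 0.02 over all tested genes. Fos, a subunit of the AP-1 transcription factor, was at 60.9, 65.3 and 58.7 CPM at 6 months and at 1.46, 0.751 and 1.26 CPM at 8 months. The WT hearts of 6 months had 1.75, 1.16 and 1.2 CPM of Fos, so that the 3 sonogenetic hearts of 6 months were the high libraries and the other 6 lay together near the detection floor. Fos fell by 5.70 on the log2 scale (SE 0.17, adjusted p = 1.57e-10).

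The orphan nuclear receptors of the NR4A family, which are induced by calcium and cAMP, fell with it. Nr4a3 was at 194, 266 and 196 CPM at 6 months and at 15.2, 12.6 and 11.8 CPM at 8 months (log2 fold change -4.03, SE 0.15, adjusted p = 7.78e-10). Nr4a1 was at 187, 226 and 188 CPM and at 30.9, 28.3 and 29.1 CPM (-2.74, SE 0.09, adjusted p = 5.56e-10). The zinc finger factor Egr1 was at 166, 214 and 177 CPM and at 28, 31 and 37.9 CPM (-2.49, SE 0.12). In none of these did the time points overlap. Unlike Fos, all of them remained above the WT levels at 8 months: WT hearts had 3.24 to 4.12 CPM of Nr4a3, 6.18 to 8.23 CPM of Nr4a1 and 6.07 to 8.42 CPM of Egr1, ranges that the hearts of 8 months did not reach.

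Other members fell as well. Fosb, a second AP-1 subunit, went down by 4.31 (SE 0.32) and Sik1, a kinase that restrains CREB coactivators, by 1.87 (SE 0.08). Chosen after their values were seen, the AP-1 subunit Junb fell by 2.84 (SE 0.14) and the stress factor Atf3 by 3.35 (SE 0.15). The member that rose was Btg1, an antiproliferative gene also picked after its value was seen, with 35.1 to 40.2 CPM at 6 months and 43.2 to 54.2 CPM at 8 months (0.45, SE 0.10).

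**Figure D2:**
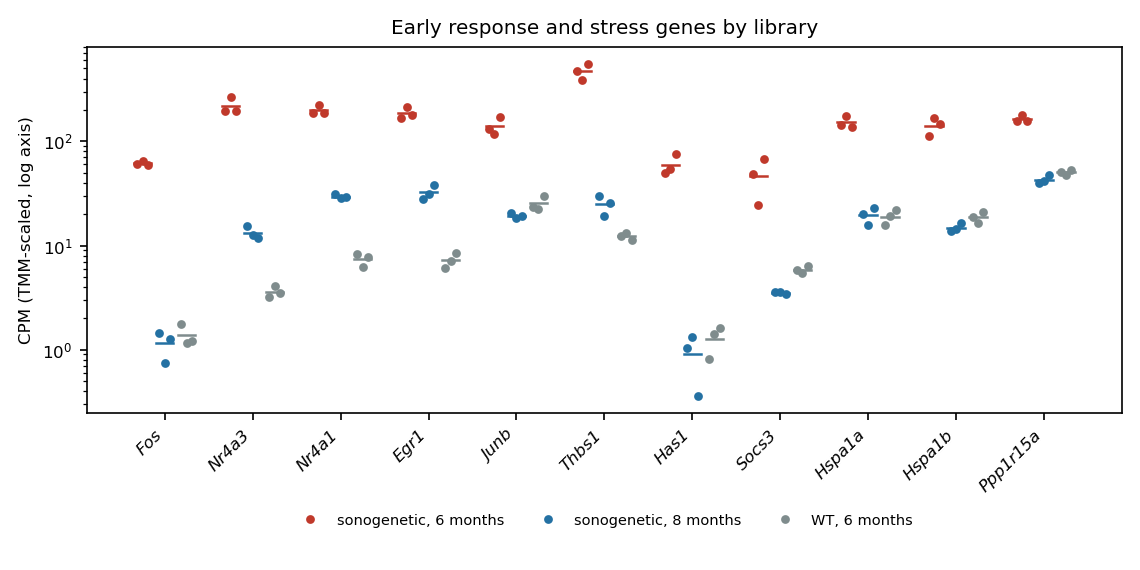
Levels of 11 early response and stress genes in CPM on a log axis; each point is 1 library, horizontal bars are group means, and colours mark sonogenetic hearts of 6 and 8 months and WT hearts of 6 months. The sonogenetic hearts of 6 months are the highest group for every gene shown, with Fos at 58.7 to 65.3 CPM against 0.751 to 1.46 CPM at 8 months.

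The promoter of Dusp5, a phosphatase that switches off nuclear ERK, is printed because it carries a CArG box, the element named for binding serum response factor. Dusp5, chosen after its value was seen, was at 45.9, 26.7 and 48.8 CPM at 6 months and at 4.38, 6.00 and 4.85 CPM at 8 months (-2.95, SE 0.25). The sequence is the 250 bases upstream of the RefSeq gene start, chr1:262543524-262543773 of the rat assembly GRCr8, plus strand, written 5′ to 3′, and capitals mark 2 adjacent CArG boxes.
Dusp5: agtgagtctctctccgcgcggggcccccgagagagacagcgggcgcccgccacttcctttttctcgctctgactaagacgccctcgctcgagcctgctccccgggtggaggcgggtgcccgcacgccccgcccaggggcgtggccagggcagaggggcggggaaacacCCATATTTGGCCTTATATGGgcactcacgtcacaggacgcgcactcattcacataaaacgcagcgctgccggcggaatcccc
On either strand, a CArG box was found in the 250-base windows of 6 of 24 immediate early genes with a RefSeq promoter (25%) and in 1.39% of the windows of 10637 tested genes. The 6 were Dusp5, Egr1, Egr2, Klf6, Srf and Zfp36, and all of them were lower at 8 months. The cAMP response element TGACGTCA was found in 5 of the 24 windows (20.8%, against 2.80% of all), those of Btg2, Dusp1, Ier2, Jund and Maff, all lower. Within the list, the names come from the search and were not chosen by their change. The list itself was chosen with earlier results of these data known. Of the whole list 32 of 36 tested members were lower, whether or not an element was found. A match is a description of letters and not a site of binding.

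Thbs1, Has1 and Tnfaip6 were among the largest falls. Thbs1, thrombospondin 1, was at 469, 388 and 557 CPM at 6 months and at 29.6, 19.1 and 25.7 CPM at 8 months, with 11.2 to 13.1 CPM in WT hearts of 6 months. The time points were far apart, and Thbs1 fell by 4.22 (SE 0.15, adjusted p = 7.63e-10). Has1, a hyaluronan synthase, was at 49.8, 53.9 and 76.0 CPM and at 1.04, 1.31 and 0.359 CPM (-6.01, SE 0.29). Tnfaip6, a hyaluronan-binding protein, fell by 4.53 (SE 0.39).

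Some of the largest falls ended at or near 0 counts, where only bounds can be given. C15h13orf42, a gene of uncharacterised function, had 76 counts over the hearts of 6 months and 0 over those of 8 months, at least 17.7-fold lower with 3 counts over the group as the floor. The cytokine Il6, chosen after its value was seen, had 47 and 0 counts, at least 11-fold lower. The pentraxin Ptx3 had 71 and 2 counts, which is 24.8 times lower per library size (95% exact counting interval 6.63 to 209). The axonemal dynein Dnah7 had 110 and 2 counts (38.5 times, interval 10.4 to 322), and the neuronal tubulin Tubb3 had 64 and 3 counts (14.9 times, interval 4.88 to 74.3). These intervals cover counting error only. With more counts, Pck1, the gluconeogenic enzyme that adipocytes also use, fell from 18.1, 10.9 and 27.9 CPM to 0.418, 0.375 and 0.718 CPM (-5.13, SE 0.51), and Aurkb, a mitotic kinase, from 22.3, 7.24 and 15 CPM to 0.626, 0.563 and 0.718 CPM (-4.45, SE 0.54). Of 22 tested cell cycle genes, Aurkb among them, 3 were lower and 4 higher. These shares of 13.6% and 18.2% were not above the 20.5% and 19.1% of all tested genes. The last of the largest falls were Fam222a (-4.17, SE 0.32) and Kcnj6, a potassium channel (-3.58, SE 0.41).

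Of 32 tested heat shock proteins and cytosolic chaperones, 20 were lower at 8 months (62.5%, against 20.5% of all tested genes), 4 were higher and 8 did not pass, with a median of -0.36. Hspa1a, an inducible HSP70, was at 144, 175 and 138 CPM at 6 months and at 20.3, 15.8 and 22.8 CPM at 8 months, with 15.8 to 21.8 CPM in WT hearts. Hspa1a fell by 2.93 (SE 0.13), and the neighbouring copy Hspa1b, whose reads may be shared with it, fell by 3.22 (SE 0.14). Hspb1, a small heat shock protein that protects actin filaments, fell by 1.25 (SE 0.07), and the co-chaperone Dnajb4 by 1.54 (SE 0.06). The members that rose, named after their values were seen, were the small heat shock proteins Hspb2 (0.31, SE 0.07), Hspb3 (0.38, SE 0.10) and Hspb6 (0.27, SE 0.07) and the mitochondrial co-chaperonin Hspe1 (0.18, SE 0.06). The call of Hspe1 was lost with DESeq2, with no filter, in the fit with the WT hearts and without any 1 of the 6 libraries (0.14 to 0.19 over these), and that of Hspb6 without replicate 1 of 6 months (0.23) or replicate 3 of 8 months (0.21).

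The promoter of Hsph1, an HSP110 chaperone, is shown for its heat shock element (GAA, any 2 bases, TTC, any 2 bases, GAA), in capitals, which here reads on the opposite strand. Hsph1, chosen after its value was seen, was at 215, 233 and 222 CPM at 6 months and at 106, 117 and 125 CPM at 8 months (-0.92, SE 0.07). The window is chr12:10427118-10427367 of GRCr8, plus strand, from RefSeq.
Hsph1: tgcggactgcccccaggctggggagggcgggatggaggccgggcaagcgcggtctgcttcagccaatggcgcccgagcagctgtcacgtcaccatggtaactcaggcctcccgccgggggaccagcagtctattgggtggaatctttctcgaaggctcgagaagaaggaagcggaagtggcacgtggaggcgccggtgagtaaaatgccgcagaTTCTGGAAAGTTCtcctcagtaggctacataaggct
The element was found on either strand in 4 of 26 windows of the list (15.4%) and in 0.385% of all windows. Of those 4 genes 2 were lower, 1 was higher and 1 did not pass.

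Of 23 tested folding genes of the endoplasmic reticulum 17 fell (73.9%, against 20.5% of all tested genes) and the other 6 did not pass (median -0.32). Ern1, the stress sensor IRE1, fell by 1.34 (SE 0.11), the chaperone Hsp90b1 by 0.68 (SE 0.07) and Hspa5, the chaperone BiP, from 920, 1045 and 958 CPM to 688, 693 and 679 CPM (-0.48, SE 0.06). Among 24 tested genes of the ATF4 response 12 were lower and 3 higher. Atf4, its transcription factor, was at 259, 265 and 284 CPM at 6 months and at 116, 106 and 120 CPM at 8 months (-1.21, SE 0.07). Ppp1r15a, the phosphatase subunit that ends the response, was at 155, 180 and 158 CPM and at 39.5, 41.8 and 47.4 CPM (-1.91, SE 0.09).

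**Figure D3:**
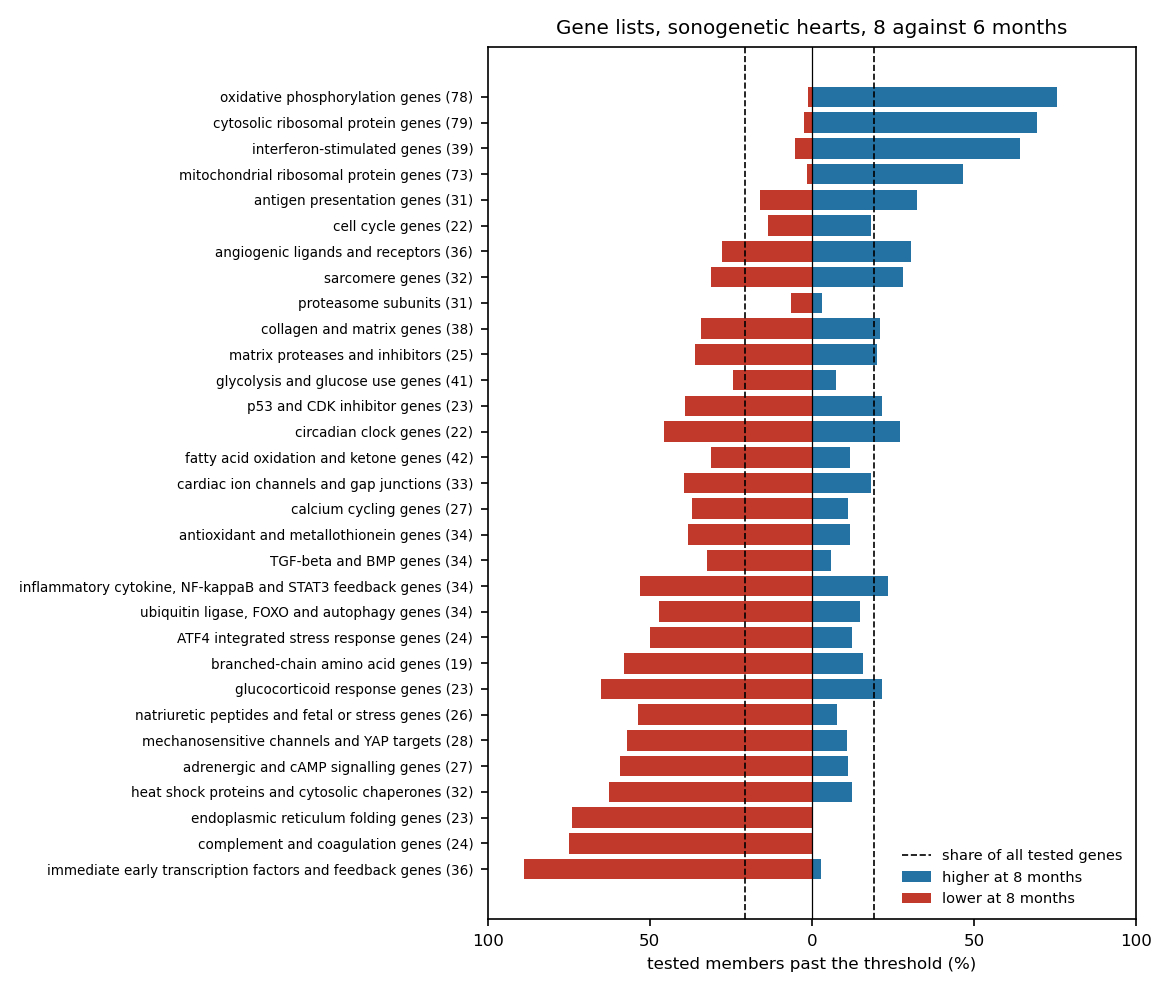
Share of tested members that were higher (right) or lower (left) at 8 months, in percent, for pathway lists with at least 10 tested members, whose number stands in brackets; dashed lines give the shares over all tested genes, 19.1% and 20.5%. Immediate early genes stand at 88.9% lower, and oxidative phosphorylation genes at 75.6% higher.

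Of 26 tested genes of the fetal and stress programme of heart muscle 14 were lower (53.8%, against 20.5% of all tested genes) and 2 higher (median -0.35), and the natriuretic peptides Nppa and Nppb did not pass the test. Myh7, the slow myosin heavy chain, was at 15111, 11720 and 17307 CPM at 6 months and at 4348, 4233 and 4632 CPM at 8 months, with 2449 to 2654 CPM in WT hearts. The groups did not overlap, and Myh7 fell by 1.71 (SE 0.10, adjusted p = 5.81e-08). Xirp1, an actin-binding protein of the intercalated disc, was at 1007, 987 and 1188 CPM and at 194, 192 and 221 CPM (-2.36, SE 0.08). Flnc, the muscle filamin, fell by 1.59 (SE 0.07), Rcan1, a calcineurin regulator, by 1.09 (SE 0.07), and Ankrd1, a stretch-responsive nuclear and titin-bound protein, by 0.44 (SE 0.08). Ankrd1 at 4559 to 5221 CPM and Rcan1 at 410 to 481 CPM were still above the WT ranges of 2573 to 2716 and 140 to 167 CPM.

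Nppa, the atrial natriuretic peptide, varied within groups more than between them. It was at 360, 35.0 and 565 CPM at 6 months and at 482, 104 and 356 CPM at 8 months, with replicate 2 lowest at both time points and full overlap (0.00, SE 0.65, adjusted p = 0.998). Nppb, the B-type peptide, was at 400, 191 and 563 CPM and at 286, 161 and 242 CPM, which also overlapped (-0.71, SE 0.29, adjusted p = 0.0655). WT hearts had 18.2 to 32.3 CPM of Nppb, below every sonogenetic library. Nppb passed the threshold without replicate 2 of 6 months, at -1.05, and with no count filter, at -0.74. Acta1, the skeletal actin of the fetal heart, was at 562, 349 and 527 CPM and at 529, 345 and 399 CPM (-0.15, SE 0.17, adjusted p = 0.509), and passed without that same library, at -0.34.

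Among 32 tested sarcomere genes 9 were higher (28.1%) and 10 lower (31.2%), against 19.1% and 20.5% of all tested genes. The median of the sarcomere genes, -0.01, turned positive under library size (0.05) and upper-quartile scaling (0.06) and without gene copies (0.03). Myh6, the fast myosin heavy chain, was at 37548, 43566 and 37213 CPM at 6 months and at 45672, 48333 and 45735 CPM at 8 months (0.27, SE 0.05), while WT hearts had 51388 to 56428 CPM. Myl2, the ventricular regulatory light chain, rose from 7154, 7626 and 7813 CPM to 11077, 10709 and 10802 CPM (0.56, SE 0.04), above the WT range of 6596 to 7328 CPM. Myot, the Z-disc protein myotilin, fell from 35.7, 38.2 and 43.5 CPM to 12.1, 7.51 and 11.7 CPM (-1.88, SE 0.15), and Lmod2, which elongates thin filaments, by 0.70 (SE 0.05). Tnnt2, whose promoter drives the transgene, rose by 0.18 (SE 0.05), a call that was lost without replicate 1 or replicate 2 of 8 months (0.14 and 0.15).

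Lrrc10, a leucine-rich repeat protein of heart muscle, was chosen after its value was seen. It was at 89.2, 85.2 and 89.8 CPM at 6 months and at 455, 481 and 499 CPM at 8 months (2.47, SE 0.06, adjusted p = 8.54e-11), and the WT hearts of 6 months had 468, 522 and 569 CPM. The low libraries were thus the sonogenetic hearts of 6 months. The kelch-like gene Klhl33, also picked after its value was seen, showed the same order, with 8.78 to 12.5 CPM at 6 months, 49.9 to 67.9 CPM at 8 months (2.48, SE 0.14) and 89.7 to 106 CPM in WT hearts. Of the hexosamine pathway, again picked after the values were seen, the enzyme Gfpt2 fell from 107, 130 and 136 CPM to 11.3, 11.6 and 11.7 CPM (-3.40, SE 0.11) and Uap1 from 284, 279 and 299 CPM to 41.3, 43.3 and 47.6 CPM (-2.67, SE 0.07). Irs2, an adaptor of insulin signalling and likewise outside the naming rule, fell from 411, 453 and 420 CPM to 90.0, 91.0 and 95.8 CPM (-2.19, SE 0.07).

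Of 27 tested calcium cycling genes 10 were lower (37%, against 20.5% of all tested genes) and 3 higher, and of 33 channel and gap junction genes 13 were lower (39.4%) and 6 higher. Both medians were -0.07 and turned positive under upper-quartile scaling (0.0086 and 0.0037). Ryr2, the calcium release channel of the sarcoplasmic reticulum, fell by 0.39 (SE 0.05) and Atp2a2, its calcium pump, by 0.31 (SE 0.05), whereas Casq2, its calcium buffer, rose by 0.30 (SE 0.05). Ryr2 was at 1933 to 2140 CPM at 8 months and 2294 to 2696 CPM in WT hearts of 6 months. Gja1, the gap junction protein connexin 43, fell by 0.44 (SE 0.08). Kcnk3, a background potassium channel, was at 125, 135 and 138 CPM and at 49.5, 42.8 and 53.1 CPM (-1.43, SE 0.08), and Cacna1h, a T-type calcium channel, went the other way, from 9.74, 11.2 and 11.3 CPM to 28.4, 37.3 and 29.6 CPM (1.59, SE 0.13).

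Among mechanosensitive channels and targets of the stretch-responsive coactivator YAP, 16 of 28 tested were lower and 3 higher (median -0.41). The lower members were 57.1%, against 20.5% of all tested genes. Trpv4, a channel gated by swelling and heat, fell from 19.5, 13.5 and 17.7 CPM to 2.92, 1.69 and 4.13 CPM (-2.48, SE 0.25), overlapping the WT levels of 1.93 to 3.37 CPM. Piezo1, a channel opened by membrane tension, was at 32.3, 33.2 and 30.7 CPM and at 23.2, 24.6 and 22.6 CPM (-0.42, SE 0.09). Ccn1, a secreted YAP target, fell by 1.70 (SE 0.14), and Axl, a receptor kinase, by 1.04 (SE 0.08). Picked after its value was seen, Piezo2, a paralogue of Piezo1, went from 0.773, 0.874 and 1.06 CPM to 2.30, 2.81 and 2.87 CPM (1.56, SE 0.33).

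In the adrenergic and cAMP list, 16 of 27 tested genes were lower (59.3%, against 20.5% of all tested genes) and 3 higher (median -0.30). Crem, a cAMP-induced repressor, fell from 110, 127 and 125 CPM to 25.3, 24.4 and 25.1 CPM (-2.25, SE 0.08), and WT hearts had 18 to 19.7 CPM. Rgs2, a brake on G proteins, fell by 1.77 (SE 0.24). The alpha-adrenergic receptor Adra1d, outside the naming rule, rose from 3.09, 1.37 and 2.26 CPM to 4.38, 9.01 and 10.2 CPM (1.88, SE 0.34).

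Of 78 tested oxidative phosphorylation genes 59 rose (75.6%, against 19.1% of all tested genes) and 1 fell, with a median of 0.31. The rises were small: when tested for a change of at least 1.5-fold, 0 of the 78 passed in either direction. Uqcrb, a subunit of complex III, was at 489, 486 and 491 CPM at 6 months and at 726, 748 and 698 CPM at 8 months (0.60, SE 0.05), with 391 to 465 CPM in WT hearts. Ndufb7, a subunit of complex I, rose by 0.62 (SE 0.06), and Atp5pf, a subunit of the ATP synthase, by 0.53 (SE 0.05). For all 3 genes, the hearts of 8 months were above both groups of 6 months. The member that fell was Sdha, a subunit of complex II (-0.15, SE 0.05), a call lost under library size (-0.09) and upper-quartile scaling (-0.07), in the fit with the WT hearts (-0.15) and without replicate 2 of 6 months or any 1 library of 8 months (-0.17 to -0.11).

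Of 73 tested mitochondrial ribosomal protein genes 34 rose and 1 fell (median 0.20), and of 79 cytosolic ribosomal protein genes 55 rose and 2 fell (median 0.24). The rises were 46.6% and 69.6%, against 19.1% of all tested genes. When tested for a change of at least 1.5-fold, 0 genes of either list passed, whereas 29 of 36 immediate early genes were still lower. Mrpl58, a mitochondrial release factor of the large subunit, was at 38.2, 42.0 and 41.1 CPM and at 60.3, 61.2 and 62.8 CPM (0.63, SE 0.08). Rpl35, a protein of the large cytosolic subunit, was at 240, 281 and 262 CPM and at 358, 381 and 382 CPM (0.55, SE 0.07). Those that fell, named after their values were seen, were Mrpl47 (-0.25, SE 0.09), Rpl17 (-0.39, SE 0.08) and Rpl30 (-0.27, SE 0.08). The call of Mrpl47 was lost with DESeq2, under library size or upper-quartile scaling, and without replicate 1 of 6 months or replicate 2 or 3 of 8 months (-0.28 to -0.18). That of Rpl30 was lost under upper-quartile scaling (-0.19), in the fit with the WT hearts (-0.27) and without replicate 2 of 8 months (-0.25).

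**Figure D4:**
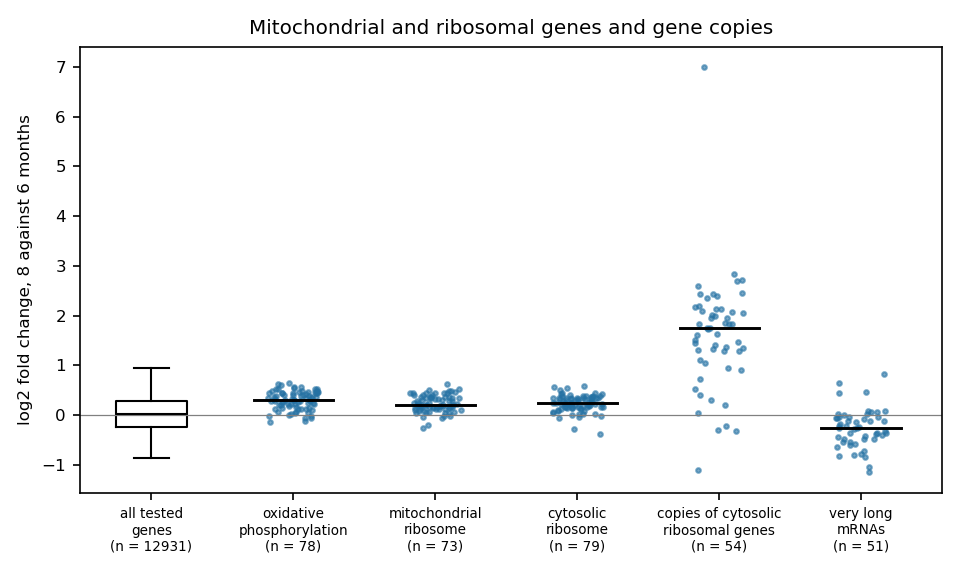
Log2 fold change of 8 against 6 months; the box over all 12931 tested genes spans the quartiles with whiskers at the 5th and 95th percentiles, each point elsewhere is 1 gene, and horizontal lines are medians. Mitochondrial and cytosolic ribosomal and oxidative phosphorylation genes centre at 0.20 to 0.31, very long messenger RNAs at -0.25, and genes named as copies of cytosolic ribosomal protein genes at 1.74.

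Other readings of the libraries moved with the rises of oxidative phosphorylation and ribosomal protein genes. Genes with very long messenger RNAs were a list kept as a check on RNA quality. Of 51 tested 26 were lower (51%, against 20.5% of all tested genes) and 4 higher, with a median of -0.25. Genes named as copies were those whose name adds l or -ps, with or without a number, to another listed name. The rule goes by name alone, and likeness of sequence was not checked. Such genes were higher in 170 of 512 (33.2%, against 18.4% of genes that are neither copies nor their parents) and lower in 88. By parent, 47 of 54 copies of cytosolic ribosomal protein genes rose, with a median of 1.74, as did 6 of 7 copies of oxidative phosphorylation genes, while of 451 copies of other genes 117 rose and 86 fell. Among the largest rises of all were Rps10l6 (6.99, SE 0.32), Kpna2l1 (3.2, SE 0.16), Rps24-ps15 (2.83, SE 0.20), Ndufb3l2 (2.82, SE 0.17), Rps7-ps23 (2.71, SE 0.19) and Rpl37l1 (2.70, SE 0.20), all named as copies, and Rbs10l2 (2.77, SE 0.28). Rps10l6 was at 21.1, 28.1 and 26.0 CPM at 8 months and at 0 to 0.309 CPM in sonogenetic and 0.386 to 0.802 CPM in WT hearts of 6 months, so that both groups from the table of 6 months were low. Reads of a copy and its parent may be shared, and these values are uncertain. Of the ribosomal protein genes without a tested copy 29 of 39 rose (median 0.23), and of those with one 26 of 40 (median 0.26). The part of the table, of gene copies and of messenger length in the rises of these lists was not tested.

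Of 42 tested genes of fatty acid oxidation and ketone use 13 were lower (31%, against 20.5% of all tested genes) and 5 higher (median -0.09). This balance moved with scaling, to 11 lower and 12 higher under library size and 10 lower and 14 higher under upper quartile. Of 41 genes of glycolysis and glucose use 10 were lower (24.4%) and 3 higher, but under upper-quartile scaling 7 were lower and 10 higher, and the median of -0.04 turned to 0.04. Pdk4, the kinase that closes pyruvate entry into mitochondria, was at 769, 1052 and 880 CPM at 6 months and at 315, 284 and 303 CPM at 8 months (-1.56, SE 0.09), still above the 97.3 to 130 CPM of WT hearts. Ppargc1a, the coactivator PGC-1 alpha, was at 231, 230 and 174 CPM and at 133, 152 and 127 CPM (-0.60, SE 0.11). Cd36, a fatty acid transporter, fell by 0.63 (SE 0.07), to 243 to 277 CPM, below the 398 to 432 CPM of WT hearts. Hk2, the insulin-responsive hexokinase, fell by 1.23 (SE 0.09). Of 19 branched-chain amino acid genes 11 were lower and 3 higher (median -0.27), among them Acadsb (-0.97, SE 0.09) and Ivd (-0.66, SE 0.06), both dehydrogenases of that pathway.

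Clock genes, which peak at different hours of the day, changed in both directions. Of 22 tested members, with a median of -0.26, 6 were higher (27.3%) and 10 lower (45.5%), against 19.1% and 20.5% of all tested genes. Bmal1, the positive limb of the clock, was at 7.88, 6.87 and 7.85 CPM at 6 months and at 15.7, 18.4 and 17.2 CPM at 8 months (1.21, SE 0.14), and WT hearts of 6 months had 2.02 to 3.35 CPM. Per2, of the negative limb, was at 126, 145 and 134 CPM and at 35.9, 34.3 and 29.8 CPM (-1.99, SE 0.09), below the WT levels of 71.7 to 81.0 CPM. The output factor Dbp rose from 28.8, 29.0 and 27.0 CPM to 65.3, 71.3 and 62.5 CPM (1.26, SE 0.08), far under the WT levels of 208 to 221 CPM. Nr1d1, the repressor REV-ERB alpha, rose by 1.17 (SE 0.07) and Bhlhe40, a repressor of clock transcription, fell by 1.2 (SE 0.08).

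Outside the naming rule, Npas2, a partner of Bmal1, rose from 2.01, 4.87 and 2.79 CPM to 9.40, 11.8 and 13.6 CPM (1.85, SE 0.26), and the negative limb genes Per1 (-0.52, SE 0.07), Cry1 (-0.78, SE 0.17) and Cry2 (-0.79, SE 0.09) fell. The hour of collection is not given in the labels, and its part in these differences was not tested.

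Glucocorticoid response genes were lower in 15 of 23 tested (65.2%, against 20.5% of all tested genes) and higher in 5 (median -0.82). Fkbp5, a chaperone of the glucocorticoid receptor, was at 125, 123 and 120 CPM at 6 months, at 30.1, 29.8 and 30.5 CPM at 8 months (-1.99, SE 0.07, adjusted p = 7.63e-10) and at 82.8 to 86.2 CPM in WT hearts. Zbtb16, a hormone-induced zinc finger factor, was at 280, 366 and 296 CPM and at 72.9, 67.9 and 66.4 CPM (-2.16, SE 0.10), with 262 to 282 CPM in WT hearts. In both genes the hearts of 8 months were the low libraries, below both groups of 6 months. Bcl6, a transcriptional repressor, fell by 2.07 (SE 0.12). Picked after the values were seen, the metallothionein Mt2A fell by 2.82 (SE 0.28) and Ddit4, an inhibitor of mTOR signalling, rose from 43.9, 39.2 and 39.0 CPM to 88.3, 82.2 and 87.6 CPM (1.11, SE 0.08).

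**Figure D5:**
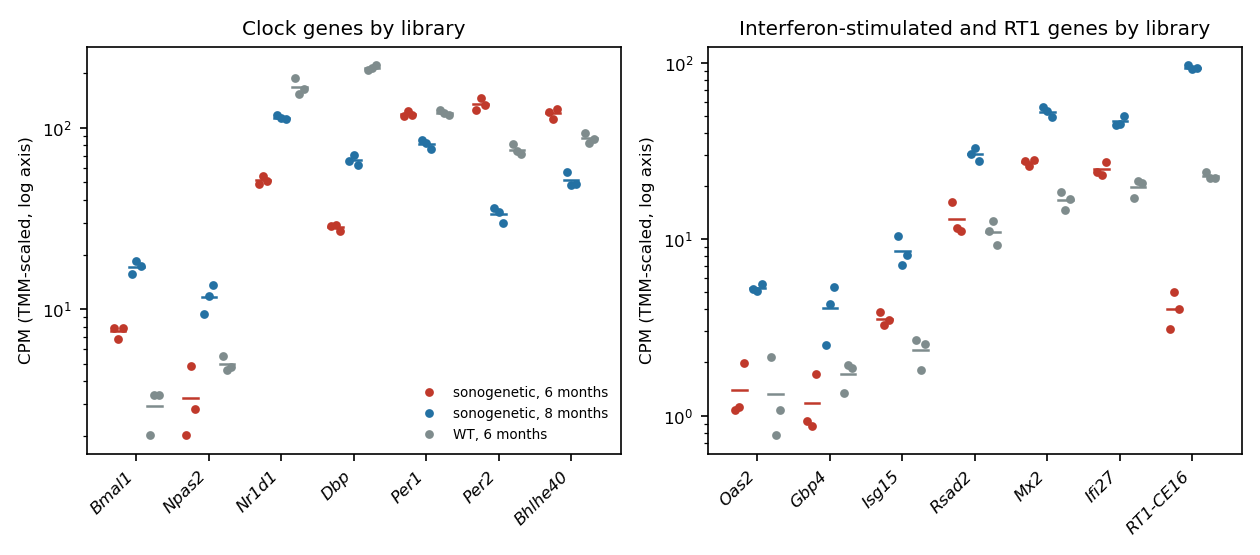
Levels of clock genes (left) and of interferon-stimulated and RT1 genes (right) in CPM on log axes; each point is 1 library, horizontal bars are group means, and colours mark sonogenetic hearts of 6 and 8 months and WT hearts of 6 months. Bmal1 and Dbp rise and Per2 falls between the sonogenetic groups, and for RT1-CE16 the hearts of 8 months (91.8 to 96.2 CPM) exceed both groups of 6 months.

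Of 39 tested interferon-stimulated genes 25 were higher (64.1%, against 19.1% of all tested genes) and 2 lower, with a median of 0.55 that kept its sign in every alternative (0.47 to 0.63). Mx2, an antiviral GTPase, was at 27.5, 26.1 and 28.1 CPM at 6 months and at 55.7, 53.3 and 49.4 CPM at 8 months (0.98, SE 0.09), with 14.6 to 18.5 CPM in WT hearts. Rsad2, the antiviral enzyme viperin, was at 16.2, 11.6 and 11 CPM and at 30.3, 32.8 and 27.8 CPM (1.26, SE 0.14), with 9.22 to 12.6 CPM in WT hearts. Ifi27 rose by 0.93 (SE 0.10) and the guanylate-binding protein Gbp2 by 0.91 (SE 0.12). The hearts of 8 months were above every library of 6 months for Mx2, Rsad2 and Ifi27, and overlapped the WT range of 19.8 to 28.5 CPM for Gbp2, at 26.9 to 34.7 CPM. Outside the naming rule, the ubiquitin-like Isg15 rose by 1.30 (SE 0.21), the 2′-5′ oligoadenylate synthetase Oas2 by 1.92 (SE 0.29) and Gbp4 by 1.81 (SE 0.37). The members that fell were the transcription factor Irf1 (-0.42, SE 0.12) and the tethering factor Bst2 (-0.32, SE 0.08), also outside the rule. The call of Irf1 was lost without replicate 3 of 6 months (-0.34) and without replicate 1 (-0.40) or 2 (-0.39) of 8 months.

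Promoters of Rsad2 and of Oas1a, a further oligoadenylate synthetase, are printed for the core of the interferon-stimulated response element (GAAA, any 2 bases, GAAA), shown in capitals. Oas1a, chosen after its value was seen, was at 2.32, 2.62 and 3.99 CPM at 6 months and at 6.68, 5.07 and 8.79 CPM at 8 months (1.22, SE 0.27). The RefSeq windows are chr6:48788121-48788370, minus strand, for Rsad2, where the element reads on the opposite strand, and chr12:41330216-41330465, plus strand, for Oas1a, where 2 matches overlap, both in GRCr8.
Rsad2: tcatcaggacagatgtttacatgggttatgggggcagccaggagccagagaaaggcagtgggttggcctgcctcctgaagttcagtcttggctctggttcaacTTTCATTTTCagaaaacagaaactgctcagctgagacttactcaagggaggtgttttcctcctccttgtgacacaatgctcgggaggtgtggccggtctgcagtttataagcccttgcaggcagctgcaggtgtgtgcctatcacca
Oas1a: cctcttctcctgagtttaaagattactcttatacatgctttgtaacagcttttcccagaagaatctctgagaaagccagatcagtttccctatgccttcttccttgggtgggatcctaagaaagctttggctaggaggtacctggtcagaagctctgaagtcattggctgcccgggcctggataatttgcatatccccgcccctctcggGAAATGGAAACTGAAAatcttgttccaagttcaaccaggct
On either strand, this core was found in 20 of 32 windows of interferon-stimulated genes (62.5%) and in 2.90% of all windows. Of the 20 genes 14 were higher, 1 was lower and 5 did not pass. Of the whole list 25 of 39 tested members were higher (64.1%), whether or not the core was found. The element is part of how such genes are commonly recognised, and its share is given as a description.

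Histocompatibility genes of the rat RT1 complex had some of the largest rises. Of 28 tested RT1 genes 13 were higher (46.4%, against 19.1% of all tested genes) and 1 lower, with a median of 0.34. RT1-CE16, a class I gene, was at 3.09, 4.99 and 3.99 CPM at 6 months and at 96.2, 91.8 and 93.1 CPM at 8 months (4.54, SE 0.12, adjusted p = 8.54e-11). WT hearts of 6 months had 22.3 to 24.1 CPM, so that the 3 groups were separate. RT1-N2 had 3 counts over the hearts of 6 months and 153 over those of 8 months, 72.9 times more per library size (95% exact counting interval 24.5 to 357). RT1-CE10 rose by 2.32 (SE 0.24) and, outside the naming rule, RT1-T24-3 by 2.44 (SE 0.19). RT1 genes are near copies of each other and their reads may be shared, so that single values are uncertain. Lnc-hc, a long noncoding RNA, had 0 and 96 counts over the groups of 6 and 8 months, at least 45.7-fold higher with 3 counts over the group as the floor, and WT hearts had 1.75 to 4.94 CPM. Further large rises were those of Nos2, the inducible nitric oxide synthase (2.85, SE 0.51), and Gpm6a, a membrane glycoprotein (2.84, SE 0.29). Over the antigen presentation list 10 of 31 rose and 5 fell (median 0.15).

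Of 34 tested cytokine, NF-kappaB and STAT3 feedback genes 18 were lower (52.9%, against 20.5% of all tested genes) and 8 higher (median -0.38). Socs3, the feedback inhibitor of STAT3, was at 48.1, 24.2 and 67.1 CPM at 6 months and at 3.55, 3.57 and 3.41 CPM at 8 months (-3.69, SE 0.39), below the 5.41 to 6.41 CPM of WT hearts. Stat3 itself fell from 376, 387 and 405 CPM to 160, 150 and 154 CPM (-1.31, SE 0.06). Zc3h12a, an RNase that degrades cytokine messengers, fell by 2.53 (SE 0.12), and Nfkbiz, a nuclear cofactor of NF-kappaB, by 2.60 (SE 0.19). The chemokine Ccl2, outside the naming rule, fell by 1.45 (SE 0.30), while Cxcl12, the homeostatic chemokine, rose from 216, 186 and 220 CPM to 565, 493 and 487 CPM (1.34, SE 0.08). Sele, an endothelial adhesion molecule also outside the rule, rose by 1.57 (SE 0.28).

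Complement and coagulation genes were lower in 18 of 24 tested (75%, against 20.5% of all tested genes), and the other 6 did not pass (median -0.52). C1qb, of the first complement component, was at 19.8, 20.2 and 19.7 CPM and at 12.7, 9.76 and 10.1 CPM (-0.85, SE 0.13), and its partners C1qa (-0.90, SE 0.16) and C1qc (-0.82, SE 0.13), added after their values were seen, fell alike. F13a1, a coagulation factor of macrophages, fell by 1.81 (SE 0.21). The C1q genes also stand in the macrophage list. Of 25 tested macrophage and monocyte markers 8 were lower and 2 higher (median -0.29). Mrc1, the mannose receptor of resident macrophages, was at 35.4, 38.6 and 30.1 CPM and at 12.5, 10.7 and 13.3 CPM (-1.48, SE 0.13), and Cd163, a scavenger receptor outside the naming rule, fell by 1.07 (SE 0.19). Folr2, a folate receptor of the same cells, rose from 0.155, 0.375 and 0.665 CPM to 3.76, 3.38 and 3.95 CPM (3.14, SE 0.40), just below the WT range of 4.01 to 5.41 CPM.

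Of 28 tested endothelial markers 11 were higher (39.3%, against 19.1% of all tested genes) and 4 lower (median 0.15), and of 36 angiogenic ligands and receptors 11 were higher and 10 lower. Aplnr, the apelin receptor, was at 18.1, 15.2 and 16.6 CPM at 6 months and at 66.6, 62.3 and 59.6 CPM at 8 months (1.95, SE 0.09), with 44.4 to 55.6 CPM in WT hearts. Nrp1 and Nrp2, coreceptors of vascular growth factors, rose by 1.4 (SE 0.06) and 1.48 (SE 0.08). Nrp2 reached 81.8 to 92.1 CPM against 27.2 to 33.1 CPM over both groups of 6 months. Emcn, a sialomucin of capillaries and veins, rose by 1.38 (SE 0.09), and Kdr, the main receptor of VEGF and outside the naming rule, by 0.64 (SE 0.09). Esm1, a proteoglycan of sprouting endothelium, was at 0.773, 0.375 and 1.33 CPM and at 6.68, 4.88 and 8.08 CPM (3.00, SE 0.37). Aqp1, a water channel of endothelium, fell by 0.83 (SE 0.07). Btnl9, a butyrophilin-like gene, was at 4.48, 4 and 4.92 CPM and at 47.6, 38.5 and 36.1 CPM (3.21, SE 0.15), above the 20.3 to 25.1 CPM of WT hearts.

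Matrix genes changed in both directions. Of 38 tested collagen and matrix genes 8 were higher (21.1%) and 13 lower (34.2%), against 19.1% and 20.5% of all tested genes. The list median of -0.08 was negative under every scaling and 0.02 without replicate 1 of 6 months. Under library size and upper-quartile scaling alike, 11 were higher and 10 lower. The fibrillar collagen Col3a1 was at 171, 133 and 152 CPM at 6 months and at 323, 311 and 308 CPM at 8 months (1.08, SE 0.08), beside 297 to 346 CPM in WT hearts. Col1a1 was at 51.8, 63.4 and 47.0 CPM and at 92.9, 116 and 97.6 CPM (0.95, SE 0.11), beside 109 to 129 CPM. Col1a2 (0.44, SE 0.06) and Sparc (0.45, SE 0.06), a collagen-binding protein, both outside the naming rule, rose as well. Fbln2, a fibulin of provisional matrix, fell by 1.03 (SE 0.11), and Vcan, the proteoglycan versican, by 0.99 (SE 0.12). Postn, a matricellular protein of activated fibroblasts, was at 10.8, 6.62 and 11.6 CPM and at 7.93, 4.88 and 5.02 CPM, which overlapped (-0.68, SE 0.25, adjusted p = 0.0478). The call was lost with DESeq2, limma-voom, library size or upper-quartile scaling, a stricter filter and no gene copies (-0.69 to -0.60), and without replicate 1 or 3 of 6 months or replicate 2 or 3 of 8 months (-0.60 to -0.53). Fibroblast markers were mixed, with 6 of 24 higher and 9 lower. Tcf21, a fibroblast transcription factor, fell from 19.8, 22.1 and 21.2 CPM to 5.64, 9.01 and 7.72 CPM (-1.46, SE 0.15). Among matrix proteases the disintegrin metalloproteases Adamts1 (-1.83, SE 0.11) and Adamts9 (-1.80, SE 0.09) fell.

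Cardiomyocyte markers were higher in 6 of 17 tested and lower in 5, atrial markers in 6 and 5 of 15, and ventricular markers in 5 and 1 of 11, against 39.6% of all tested genes called in either direction. Adipocyte markers were higher in 1 of 11 and lower in 5, Schwann cell and neuronal markers in 1 and 4 of 13, mesothelial markers in 2 and 1 of 7, and conduction system markers in 1 and 2 of 11. Of 22 smooth muscle and pericyte markers 3 were lower and 1 higher, 1 of 8 tested lymphocyte markers was higher, and 1 of 10 erythroid markers was lower. The share of each cell type in the tissue was not measured.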

How the data were processed

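Bulk RNA of rat heart tissue was measured in 13 samples, of which the 3 sonogenetic hearts of 8 months and the 3 of 6 months were compared. The authors deposited expected counts per gene in 1 table per time point, neither scaled nor filtered. Most values were whole, and 8.82% to 11.0% of all values in a library, genes without counts included, were fractional. Alignment, strand setting and the counting tool were not given in the sources used here. In the submitters' processing notes the builds are those of mouse, GRCm38 and mm10, whereas the gene names in the files are those of rat (38599 of 38600 match RefSeq symbols of GRCr8).

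Expected counts were rounded to whole numbers. Genes were kept by filterByExpr over the 6 libraries, scaled by TMM and tested two-sided by quasi-likelihood (glmQLFit and glmQLFTest in edgeR 4.0.16, R 4.3.3), with Benjamini-Hochberg adjustment over all 12931 genes and a threshold of 0.05. Each SE was taken as the size of the log2 fold change over the square root of its F statistic. The p-values set each difference against the spread between libraries of the same group, which holds no difference between tables. The members, the 53 gene lists and the naming rule were chosen with earlier results of these data known, so that no list is independent support. That rule took the 15 largest changes in each direction among called genes whose mean log2 CPM reached 1 and whose time points did not overlap, then at most 4 called members per list by p, some preset heart genes and the transgene. The text names a selection of them, and a gene outside the rule is said to have been chosen after its values were seen. Promoters are RefSeq windows of 250 bases upstream of the gene start.

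Replicate numbers are shared between the time points, but the deviations of same-numbered libraries correlated at 0.0546, 0.178 and 0.0378, so that the numbers were not taken as pairs. The alternatives were other size factors, other filters, DESeq2 1.42.0, limma-voom (limma 3.58.1), a replicate block, a fit with WT hearts, a minimum fold, gene sets left out and each library left out in turn. In simulated counts for this comparison (12574 genes tested) 67 genes were changed at 1.5-fold, 67 at 2-fold and 66 at 4-fold. The test found 65.7%, 95.5% and 93.9% of these, and 2.86% of its 175 calls were false. The data had 5115 calls, and no difference between tables was simulated. These rates were thus not measured for the calls of the data.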

Additional observations from a re-analysis of the deposited data

How the results depend on the processing

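The count of 5115 called genes lay between 4616 and 5554 under other size factors, other filters, limma-voom, a fit with the WT hearts and gene sets left out. DESeq2 called 3693, with 1624 higher. With a minimum fold of 1.5 the calls fell to 931, of which 443 were higher and 488 lower. Of 257 genes followed by name 100 lost their call at this setting. Among them were Hspa5, Ryr2, Atp2a2, Gja1, Ankrd1, Piezo1, Ppargc1a and Cd36. The lost calls given gene by gene above leave this setting out. With a replicate block 5427 genes passed, 2627 higher and 2800 lower; the numbers are shared by label only. Leaving out each library in turn gave 3964 to 5273 genes, 1867 to 2548 higher and 2097 to 2725 lower. In each of these alternatives 0 of the called genes changed direction. Nppa, at 0.00, turned negative with DESeq2 size factors (-0.0047), no filter (-0.024), DESeq2 (-0.0044), without haemoglobin genes (-0.0021) and without replicate 2 of 6 months (-0.54) or replicate 1 or 3 of 8 months (-0.46 and -0.11), and rose to 0.69 without replicate 3 of 6 months. With no filter MSCL_G22S (-0.20), Nppb (-0.74) and Acta1 (-0.17) passed the threshold, and with the replicate block Nppb (-0.63). The fit with no filter had infinite prior degrees of freedom (8.87 with the filter), so that its tests used the trend in place of each gene's own spread. MSCL_G22S also passed without replicate 2 of 6 months (-0.48) and turned positive without replicate 3 (0.029). The alternative without gene copies (4848 genes) was chosen after seeing the data. Genes with few counts at 8 months, whose libraries are the shallower, have the least certain folds.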
